A study of Mus musculus with 12 samples.

Results

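The net state of 2 perturbations applied together was described in C22 cells, a mouse line derived from club (Clara) cells of the airway. The comparison took the 3 libraries of cells that carried siRNA against Pdcd5 and received TGF-β1, labelled siPdcd5 + TGF-b1, against the 3 libraries of untreated cells with negative control siRNA, labelled NC. These are 6 of the 12 libraries of the series, and they were taken by their group labels. The other 6 libraries, 3 of control siRNA with TGF-β1 (NC + TGF-b1) and 3 of Pdcd5 siRNA without it (siPdcd5), were used to place each gene. TGF-β1 was given at 20 ng/ml for 24 h after serum starvation, and the cells came from mice carrying a temperature-sensitive SV40 large T antigen, so all 4 groups share that background. The labels do not say whether the replicates of a group were separate cultures, so the p-values measure only the spread between these libraries, which may be technical.

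TGF-β1 binds a pair of receptor kinases that phosphorylate SMAD proteins, and SMAD complexes then raise genes for extracellular matrix, its cross-linking enzymes and the contractile cytoskeleton, while in many epithelial cells they lower Id genes. Prolonged signalling of this kind is a driver of fibrosis in the lung. PDCD5, named for programmed cell death, is a small protein linked to apoptosis and to the folding of tubulin through the chaperonin CCT.

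Each library held between 12809857 and 17714828 counts, in RNA sequenced from the 3′ end and counted per gene symbol. Of 23282 rows, 12425 passed the filter on low counts and were tested. Levels are given as counts scaled to library size (CPM, with TMM factors), and a count of 3 corresponded to 0.165 to 0.239 CPM. One library stood apart: NC + TGF-b1 replicate 2 differed from the other 2 of its group by a chi-square per degree of freedom of 35 and 62.7, against 12.1 between those 2, 4.4 to 6.21 within NC and 5.95 to 6.55 within siPdcd5 + TGF-b1. It enters the placement of genes but not the net comparison itself, except through the shared estimate of spread. The defining club cell markers were at or near 0: Scgb3a2, Cyp2f2 and Foxa1 had no count in any of the 12 libraries, Scgb1a1 had at most 1 count and Scgb3a1 at most 5. Of 21 club cell markers, 5 were abundant enough to test. The sum over the 21 ran from 1090 to 1110 CPM in NC and from 469 to 502 CPM in siPdcd5 + TGF-b1. It was already 505 to 628 CPM in NC + TGF-b1, and 806 to 876 CPM in siPdcd5. Aldh1a1 alone had a mean of 553 CPM in NC. In the other direction, the sum over 30 markers of other lung cell types, most of it Col1a1, ran from 3490 to 3670 CPM in NC and from 5440 to 5560 CPM in siPdcd5 + TGF-b1; 5 of these markers (Sftpa1, Sftpd, Muc5ac, Marco and Cd3e) had no count. Msln, known from mesothelium, had between 8536 and 12390 counts in every library. The cells are therefore called C22 cells here and given no cell type. In bulk RNA, fewer cells of a type and less RNA per cell cannot be told apart.

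Pdcd5, the targeted gene (chromosome 7, 35641982 to 35647521, minus strand, GRCm38), checked the labels. Its level was 73.5, 65.8 and 65.1 CPM in the NC libraries, 21.2, 20.0 and 22.1 in siPdcd5, 66.3, 69.7 and 67.5 in NC + TGF-b1, and 24.1, 21.8 and 26.3 in siPdcd5 + TGF-b1. All 6 knockdown libraries lay below all 6 libraries with control siRNA. The net log2 fold change of Pdcd5 was -1.50 (SE 0.098, edgeR, Benjamini-Hochberg adjusted p = 1.1e-07), and with control siRNA it differed by -0.01 between treated and untreated cells (adjusted p = 0.979).

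In the net comparison 2233 of 12425 genes were called at an adjusted p under 0.05, 18% of those tested. Of these 1108 were higher in siPdcd5 + TGF-b1 (8.92%) and 1125 lower (9.05%), and 704 differed by at least 1 on the log2 scale. For comparison, TGF-b1 in control cells gave 1906 calls (15.3%), TGF-b1 in knockdown cells 2002 calls (16.1%), the knockdown alone 427 calls (3.44%), and the knockdown under TGF-b1, that is siPdcd5 + TGF-b1 against NC + TGF-b1, 192 calls (1.55%). With edgeR no gene passed the adjusted test of the interaction between knockdown and TGF-b1 (lowest adjusted p = 0.213), and 638 genes had an unadjusted p under 0.05. That number is close to what this threshold gives over 12425 genes without any interaction, so single unadjusted values below are descriptions. In 2229 of the 2233 net calls the 3 libraries of one group lay wholly above or below the 3 of the other, as they did in 44.7% of all genes tested. Separation of the libraries alone was therefore common.

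The 1906 genes called after TGF-b1 in control cells were then sorted by where they stood with both perturbations present. A gene was placed back at the untreated level where the knockdown moved it significantly against the TGF-b1 response, the net comparison was not called and its 95% interval lay within 1.5-fold of no change. That held for 41 genes (2.15%), 30 of them raised by TGF-b1 and 11 lowered. A further 30 genes (1.57%) were partly back: the knockdown moved them significantly against TGF-b1, yet they still differed from NC on the TGF-b1 side. The largest class, 1284 genes (67.4%), was still moved, called the same way in both comparisons and not called between the 2 treated groups. Of these 690 were higher and 594 lower. Their median absolute log2 difference between the treated groups was 0.15. No interval was asked for in this class, and 1.55% of all genes were called between the treated groups. A missing call there does not show that the knockdown left a gene unchanged. Another 34 genes (1.78%), 5 higher and 29 lower, were moved further by the knockdown in the direction TGF-b1 had taken them, and 3 genes had passed to the other side of the untreated level. A net call did not exclude a small change: the net interval lay within 1.5-fold in 2 of these 3 genes. It did so in 115 of the 1284 still moved and in 1 of the 30 partly back. The remaining 514 genes (27%) met none of these definitions. In 287 of the 514 the net interval lay within 1.5-fold of no change, but the treated groups did not differ significantly. The 41 genes are therefore not all the genes whose net interval lay within that bound. Outside the TGF-b1 calls, 882 genes, 39.5% of the net calls, were called in the net comparison only.

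These classes share libraries by construction. The NC + TGF-b1 libraries enter the TGF-b1 response and the knockdown comparison with opposite sign, and the NC libraries enter both the TGF-b1 response and the net change. Without NC + TGF-b1 replicate 2, the library that stood apart, the counts became 66 back (30 of the 41 among them), 49 partly back (27 of the 30), 1645 still moved, 54 moved further (30 of the 34) and 2928 net calls. The number of genes back moved by more than 1.5 times without any single library outside the siPdcd5 group: to 22, 26 and 23 without NC replicates 1, 2 and 3, to 19, 66 and 25 without those of NC + TGF-b1, and to 15, 13 and 12 without those of siPdcd5 + TGF-b1. Of the 12 that were left without siPdcd5 + TGF-b1 replicate 3, 11 were among the 41. The sizes of these classes are thus approximate.

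**Figure D1:**
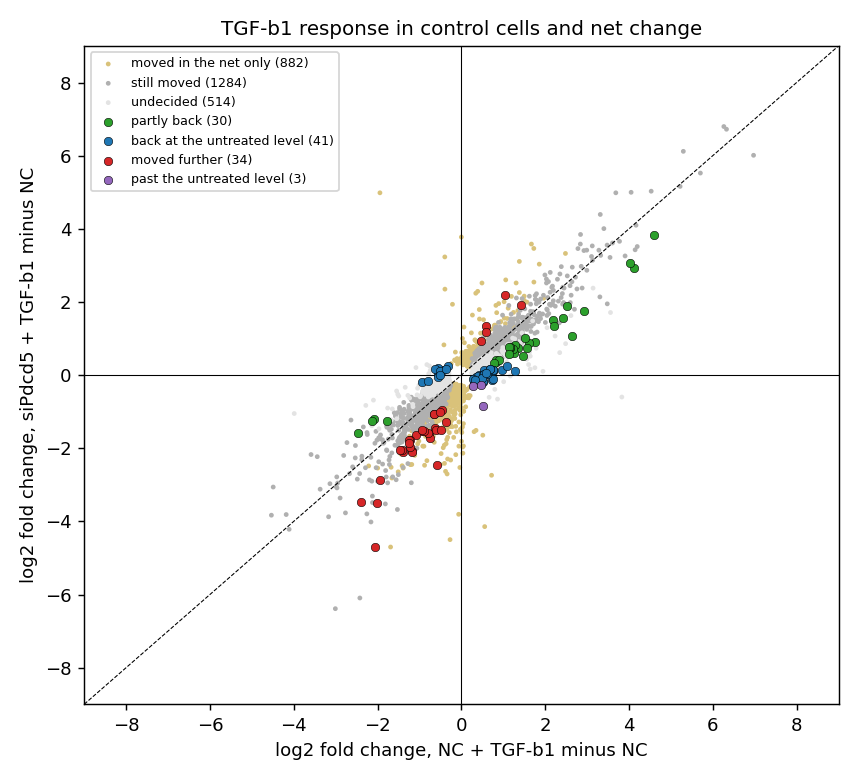
Each point is a gene, placed by its log2 fold change after TGF-b1 in control cells (horizontal axis) and by its net log2 fold change in siPdcd5 + TGF-b1 against NC (vertical axis); colours mark the classes, with gene numbers in the key, and the dashed line marks equal values. The 41 genes back at the untreated level lie along the horizontal line at 0 between -0.23 and 0.24, and the 34 moved further lie beyond the dashed line. Both axes contain the NC libraries.

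Some of these comparisons have no library in common. The knockdown alone (siPdcd5 against NC) and the knockdown under TGF-b1 share none, and of the 192 genes called in the latter, 191 had the same sign in the former and 122 were called the same way, against a same sign in 62.6% of all genes tested. TGF-b1 in control cells and TGF-b1 in knockdown cells also share none. Of the 1906 genes called in control cells, 1871 moved with the same sign in knockdown cells and 1315 were called the same way, beside a same sign in 72.9% of all genes. Of the 41 genes back at the untreated level, 27 were still called in the TGF-b1 direction in knockdown cells and 25 were called against it in untreated knockdown cells. These last counts only describe the class, since its definition drew on the same libraries.

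The matricellular and matrix genes among the 41 are given first. Tnc, which encodes the adhesion-modulating glycoprotein tenascin-C (chromosome 4, 63959785 to 64047015, minus strand), was at 18.3, 16.2 and 16.2 CPM in NC, 36.2, 37.7 and 34.5 in NC + TGF-b1, 7.75, 6.51 and 7.73 in siPdcd5, and 22.3, 19.7 and 17.8 in siPdcd5 + TGF-b1. The doubly perturbed libraries overlapped the NC libraries and lay below every NC + TGF-b1 library. Its log2 fold change was 1.10 after TGF-b1 in control cells, -1.21 with the knockdown alone, 1.45 after TGF-b1 in knockdown cells, and 0.24 net (95% interval -0.02 to 0.50, adjusted p = 0.202). Tnc overlaps a gene on the opposite strand, as do many genes named below, among them Impa2, Tmem53, Igf1, Slc7a11, Aldh1a1, Notch1, Lamb3, Ccl2, Krt8, Ogn, Slit2, Dab2, Inhba, Egfr, Adamts4, Hk2, Vcan and Junb, and the use of strand in counting is not stated, so reads of such a pair cannot be told apart.

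Col5a2, a chain of the fibril-regulating collagen V, was at 304, 352 and 325 CPM in NC, 525, 766 and 615 in NC + TGF-b1, and 384, 333 and 362 in siPdcd5 + TGF-b1. Its groups overlapped in the net comparison, and the highest NC + TGF-b1 value was that of replicate 2. The net log2 fold change of Col5a2 was 0.14 (95% interval -0.14 to 0.42). Thbs1, encoding thrombospondin 1, an activator of latent TGF-β, was at 166, 199 and 184 CPM in NC and 219, 185 and 204 in siPdcd5 + TGF-b1, after 273, 343 and 312 in NC + TGF-b1; its net log2 fold change was 0.15 (adjusted p = 0.416).

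Other matrix genes among the 41, named here after their values were seen, were the basement membrane chains Col4a1 and Lamc1, the collagen Col16a1, the lysyl oxidase Loxl2 and the prolyl hydroxylase subunit P4ha1. Their net log2 fold changes ran from 0.17 in Col4a1 to 0.02 in Lamc1 and Col16a1, after TGF-b1 responses of 0.69 (Col4a1), 0.55 (Lamc1), 0.54 (Col16a1), 0.57 (Loxl2) and 0.62 (P4ha1). Genes of other roles were there too. Vldlr, a lipoprotein receptor, rose by 1.28 on the log2 scale after TGF-b1 in control cells, from 8.82, 8.83 and 10.1 CPM in NC to 23.2, 24.4 and 20.0, and stood at 11, 9.87 and 8.94 CPM in siPdcd5 + TGF-b1 (net 0.10, SE 0.143). Wnt5a, a ligand of non-canonical Wnt signalling, had a TGF-b1 response of 0.73 and a net value of -0.13, and Hspb1, a small heat shock protein, had 0.68 and 0.18.

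Of the 11 genes lowered by TGF-b1 and back, the largest responses at a mean log2 CPM of at least 3 were in Impa2 and Tmem53. Impa2, an inositol monophosphatase, was at 14.7, 13.1 and 13.1 CPM in NC, 7.88, 7.33 and 6.14 in NC + TGF-b1 and 13.8, 9.41 and 12.3 in siPdcd5 + TGF-b1, and its groups overlapped in the net comparison (net log2 fold change -0.20, adjusted p = 0.447). Tmem53 went from 13, 13.8 and 13.4 CPM in NC to 7.88, 6.35 and 8.85, and stood at 12.9, 11.7 and 11.6 CPM in siPdcd5 + TGF-b1, still just below the NC values (net -0.15, adjusted p = 0.536). The placement of these genes was less stable than that of Tnc, Vldlr and Col5a2: Impa2 was back in 10 and Tmem53 in 5 of 19 alternative settings, against 17, 19 and 18. Birc5, the mitotic survivin gene, had a TGF-b1 response of -0.55 and a net value of -0.06.

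The threshold on the interval separated these 41 from 13 genes with the same calls and an interval that reached beyond the bound. Among the 13, the intervals of Bcl2, Rcn3, Gpr141 and Ankle1 lay wholly below no change, although their net comparison was not called. These genes were outside by the position of the interval and not only by its width. Just outside were Sh3d21, with a net interval of -0.59 to 0.21, and Bcl2, with -0.63 to -0.09. Just inside, Impa2 had an interval of -0.54 to 0.14. With the bound set at 2-fold the class held 50 genes.

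**Figure D2:**
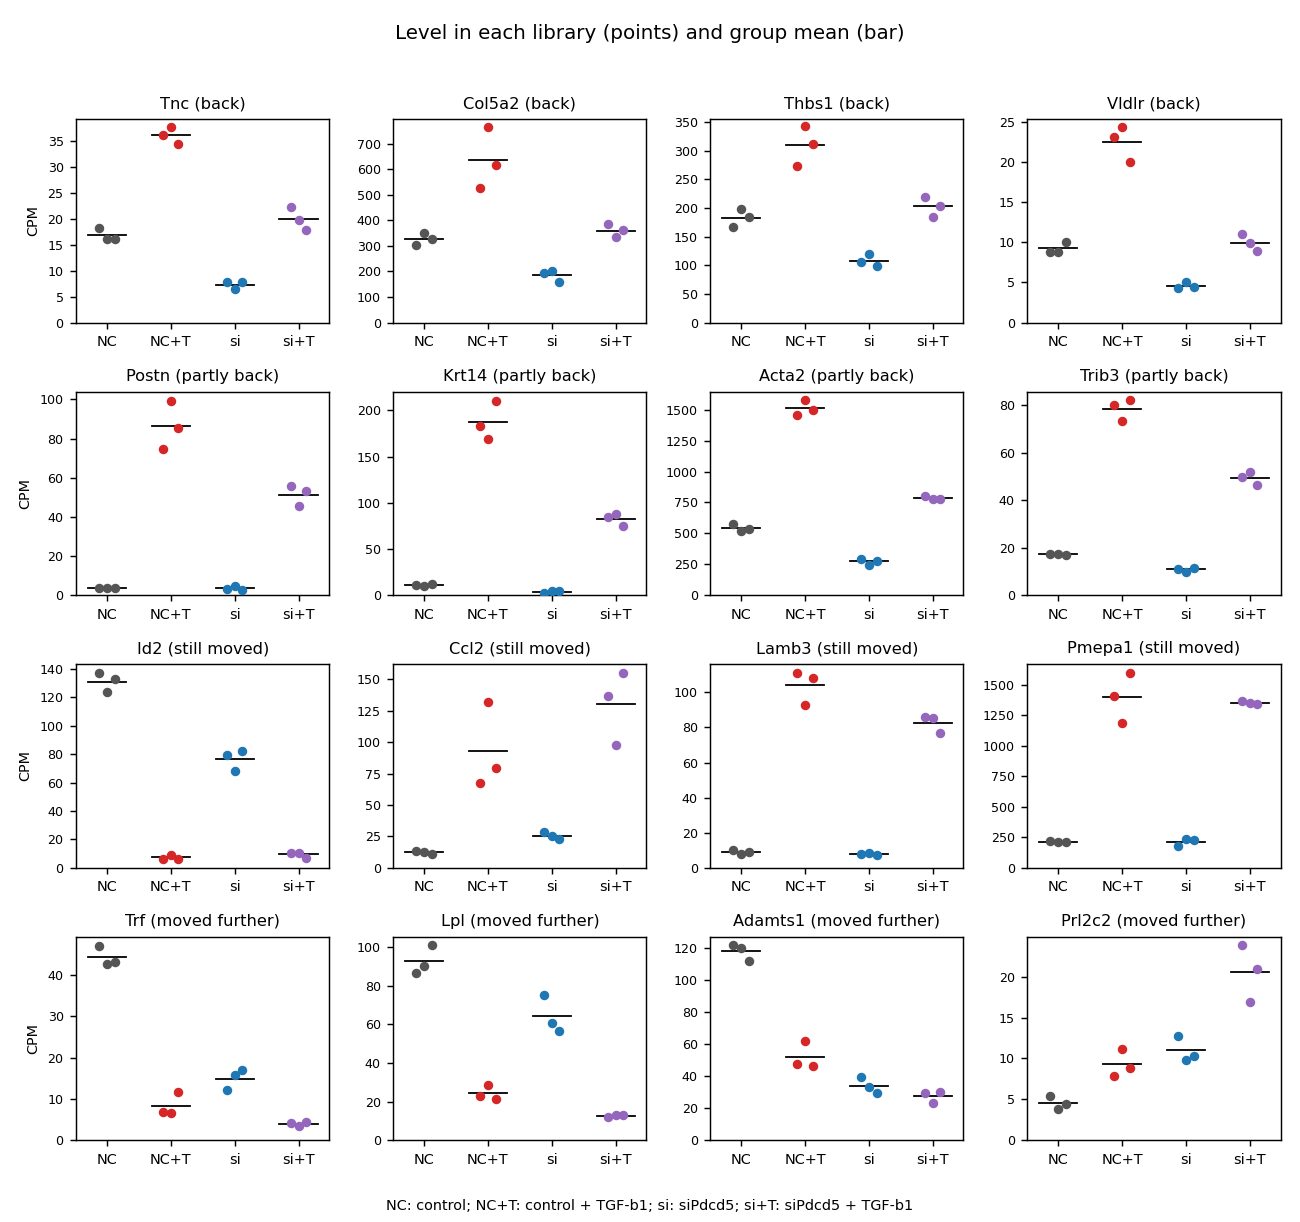
CPM in each library (points) and group means (bars) for 4 genes of each of 4 classes, with NC, NC + TGF-b1 (NC+T), siPdcd5 (si) and siPdcd5 + TGF-b1 (si+T) on the horizontal axis and a linear axis from 0. In the top row the doubly perturbed libraries return to the NC level; in the second they lie between NC and NC + TGF-b1; in the third they lie near NC + TGF-b1 and in the fourth beyond it.

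Among the 30 genes partly back, Postn had the largest net change. It encodes periostin, a matricellular protein of fibrotic tissue (chromosome 3, 54361109 to 54391037, plus strand). Its level was 3.65, 3.41 and 3.68 CPM in NC, 74.8, 99.2 and 85.5 in NC + TGF-b1, 3.03, 4.47 and 2.64 in siPdcd5, and 55.6, 45.4 and 53.2 in siPdcd5 + TGF-b1. The doubly perturbed libraries lay below every NC + TGF-b1 library and far above every NC library. The net log2 fold change of Postn was 3.84 (SE 0.181, adjusted p = 5.73e-09), against 4.59 after TGF-b1 alone. Postn was not called in untreated knockdown cells (-0.07, adjusted p = 0.921), where 17 of the 30 genes of the class were called. In the edgeR interaction test Postn had an unadjusted p of 0.0167 and did not pass the adjustment over all genes (adjusted p = 0.949).

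Krt14, a keratin of basal epithelial cells (chromosome 11, 100203162 to 100207548, minus strand), was at 10.7, 9.86 and 11.9 CPM in NC, 183, 169 and 210 in NC + TGF-b1, 1.77, 4.25 and 4.51 in siPdcd5, and 84.2, 88.0 and 75.1 in siPdcd5 + TGF-b1. No 2 of its 4 groups overlapped, and the net log2 fold change was 2.93 (SE 0.187, adjusted p = 1.1e-07). Igf1, the insulin-like growth factor, was at 5.93, 7.86 and 8.44 CPM in NC, 54.5, 57.9 and 57.5 in NC + TGF-b1, and 26.0, 23.8 and 25.4 in siPdcd5 + TGF-b1. It fell to 1.11, 1.65 and 0.708 CPM in untreated knockdown cells, and its net log2 fold change was 1.76 (SE 0.166). Within knockdown cells TGF-b1 moved Igf1 by 4.40 on the log2 scale, against 2.93 in control cells, and the difference between the 2 responses, 1.47, had an unadjusted p of 9.92e-05 in the interaction test but did not pass its adjustment over all genes.

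The contractile and matrix members of the class were Acta2, Col1a1, Col4a2, Timp3 and Mmp14, named after their values were seen. Acta2, encoding the smooth muscle actin that marks myofibroblasts, was at 574, 521 and 535 CPM in NC, and 803, 776 and 779 in siPdcd5 + TGF-b1, all above NC. Its net log2 fold change was 0.53 (SE 0.088, adjusted p = 0.000638), after 1.48 with TGF-b1 alone and -1.001 with the knockdown alone. Col1a1, the main chain of fibrillar collagen I, had a net value of 0.74 after 1.17. Col4a2 had a net value of 0.34 after 0.78, Timp3, a metalloprotease inhibitor, 1.02 after 1.53, and Mmp14, a membrane-bound collagenase, 0.77 after 1.17.

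Of the 4 genes lowered by TGF-b1 and partly back, Dcn encodes decorin, a small proteoglycan that binds collagen and TGF-β. It was at 91.7, 94.3 and 101 CPM in NC, 21.8, 22.1 and 23.9 in NC + TGF-b1, 137, 162 and 134 in siPdcd5, and 42.1, 40.1 and 42.2 in siPdcd5 + TGF-b1. All 4 groups were separate, and the net log2 fold change of Dcn was -1.21 (SE 0.094). Foxa2, a transcription factor of airway epithelium, had a net value of -1.27 after -1.77, Gas1, a growth arrest protein, -1.26 after -2.13, and Gda, guanine deaminase, -1.58 after -2.47.

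The partly back class also held genes of amino acid supply and the stress response. The transcription factor ATF4 raises such genes when amino acids run short or the endoplasmic reticulum is overloaded, and it binds, with a C/EBP partner, a composite element whose core is written here as TGATGNAA. Nupr1, a stress-induced chromatin protein, was at 114, 117 and 108 CPM in NC, 679, 566 and 707 in NC + TGF-b1, 86.7, 92.1 and 96.6 in siPdcd5, and 411, 438 and 411 in siPdcd5 + TGF-b1. The doubly perturbed libraries lay between the other treated group and NC without overlap, and the net log2 fold change of Nupr1 was 1.90 (SE 0.093, adjusted p = 1.04e-08). Trib3, a pseudokinase that feeds back on this pathway, was at 17.3, 17.5 and 16.9 CPM in NC, 80.1, 73.2 and 82.2 in NC + TGF-b1 and 49.9, 51.8 and 46.6 in siPdcd5 + TGF-b1, again without overlap (net 1.52 after 2.19). Asns, asparagine synthetase, had a net value of 0.76 after 1.14, and Slc7a5, a transporter of large neutral amino acids, 0.73 after 1.36.

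Over the whole list of 32 ATF4 and unfolded protein response genes, all tested, 19 were higher after TGF-b1 in control cells and none lower. In the net comparison 11 were higher and none lower. Over all genes tested, 15.3% were called after TGF-b1 and 18% in the net comparison. The median log2 fold change of the list was 0.75 after TGF-b1, -0.28 with the knockdown alone and 0.28 net, where the median of all genes tested was between -0.02 and 0.02 in these comparisons. Of the 19, 4 were partly back (Nupr1, Trib3, Asns and Slc7a5), 3 were back (Vldlr, Herpud1 and Phgdh), 7 were still moved and 5 met no definition. Slc7a11, the cystine transporter, was the highest of those still moved, at 2.45 CPM in NC, 12.9 in NC + TGF-b1 and 7.34 in siPdcd5 + TGF-b1 as group means (net 1.58, SE 0.293, adjusted p = 0.00141). Atf4 itself was called after TGF-b1 in control cells (0.84) and not called in the net comparison (0.54).

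The core TGATGNAA was searched on both strands in RefSeq promoters of GRCm38.p6 running from 250 bases before to 50 after each start. It was present in 3.97% of 32851 promoters. The other shares count genes matched by symbol, where a match in any promoter of a gene was enough. By gene it was in 2.81% of 9443 tested genes and in 8 of 30 matched genes of the list. In the partly back class it was in 5 of 23 matched genes (Asns, Nupr1, Pck2, Trib3 and Tubb3). The core was in 2 of 27 matched genes of the back class, in 35 of 931 of the class still moved (3.76%) and in none of 20 of the class moved further. A match is a description of letters only. The 250 bases before the start are shown for 2 genes partly back (Nupr1, Asns), 1 still moved (Slc7a11) and 1 back (Vldlr). These list members share the core and were placed in different classes. Slc7a11 missed the partly back class only because its difference between the treated groups was not called (-0.81, edgeR adjusted p = 0.147). All its siPdcd5 + TGF-b1 libraries lay below those of NC + TGF-b1. Capitals mark the core on either strand.
Nupr1, chr7:126625471-126625720, minus strand: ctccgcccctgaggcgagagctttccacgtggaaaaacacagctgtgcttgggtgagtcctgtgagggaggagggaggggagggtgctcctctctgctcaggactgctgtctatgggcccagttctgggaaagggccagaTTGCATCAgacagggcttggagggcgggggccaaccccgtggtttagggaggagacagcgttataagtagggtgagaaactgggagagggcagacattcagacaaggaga
Asns, chr6:7693210-7693459, minus strand: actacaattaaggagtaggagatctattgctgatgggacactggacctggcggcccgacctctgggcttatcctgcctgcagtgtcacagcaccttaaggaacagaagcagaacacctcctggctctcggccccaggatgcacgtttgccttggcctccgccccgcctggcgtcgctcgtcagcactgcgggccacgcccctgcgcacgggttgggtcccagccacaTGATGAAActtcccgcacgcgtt
Slc7a11, chr3:50443614-50443863, minus strand: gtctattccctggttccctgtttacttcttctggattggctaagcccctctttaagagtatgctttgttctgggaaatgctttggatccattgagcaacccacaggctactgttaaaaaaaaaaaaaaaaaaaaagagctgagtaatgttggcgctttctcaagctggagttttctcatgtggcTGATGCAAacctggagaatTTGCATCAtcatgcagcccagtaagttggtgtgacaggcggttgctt
Vldlr, chr19:27216770-27217019, plus strand: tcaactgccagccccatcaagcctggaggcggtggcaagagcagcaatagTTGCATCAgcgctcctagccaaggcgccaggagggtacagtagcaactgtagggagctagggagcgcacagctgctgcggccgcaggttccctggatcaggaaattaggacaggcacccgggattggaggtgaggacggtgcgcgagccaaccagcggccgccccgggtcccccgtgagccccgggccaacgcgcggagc
The core begins at -110 from the start site in Nupr1, -23 in Asns and -200 in Vldlr. Slc7a11 holds 2 copies, the outer of which begins at -66.

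Among the 1284 genes still moved, the largest falls at a mean log2 CPM of at least 3 were in Id2, Id3 and Atoh8, genes regulated by BMP signalling. Id2, an inhibitor of basic helix-loop-helix factors (chromosome 12, 25093799 to 25097140, minus strand), was at 137, 124 and 133 CPM in NC, 6.45, 9.19 and 6.07 in NC + TGF-b1, 79.3, 68.0 and 82.2 in siPdcd5, and 10.6, 10.3 and 7.13 in siPdcd5 + TGF-b1. The 2 treated groups overlapped, and both lay below every untreated library. The net log2 fold change of Id2 was -3.81 (SE 0.159, adjusted p = 4.27e-09), less than the sum of the single changes, -4.96. Its edgeR interaction had an unadjusted p of 0.000196 and did not pass the adjustment over all genes. Id3, of the same family, went from 237, 256 and 251 CPM in NC to 33.5, 25.8 and 30.9 in siPdcd5 + TGF-b1 (net -3.04, SE 0.197), and Id1 and the related factor Atoh8 had net values of -2.25 and -2.95. Of 14 tested members of the BMP-SMAD and Id list, 9 were lower and 2 higher in the net comparison, with a median of -1.37, and 10 of the 14 were in the still moved class. The 2 that rose were Inhba, the activin A chain (1.63), and the receptor Bmpr2 (0.59).

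At the same mean level, the largest rises in the class were Col1a2, Ccl2 and Lamb3. Col1a2, the second chain of collagen I (chromosome 6, 4504814 to 4541544, plus strand), was at 3.65, 3.49 and 3.61 CPM in NC, 20.0, 32.9 and 21.1 in NC + TGF-b1, 15.1, 11.3 and 9.79 in siPdcd5, and 38.4, 37.0 and 43.0 in siPdcd5 + TGF-b1. The doubly perturbed libraries were the highest of the 12, the net log2 fold change was 3.46 (SE 0.218, adjusted p = 6.7e-08), and the knockdown alone had raised it by 1.74 (adjusted p = 0.000633). Ccl2, a chemokine that attracts monocytes, was at 12.9, 12.8 and 11 CPM in NC and 137, 97.4 and 155 in siPdcd5 + TGF-b1, where the range overlapped the 67.5, 132 and 79.5 of NC + TGF-b1 (net 3.40, SE 0.23). Lamb3, a chain of the epithelial laminin-332, was at 9.81, 7.94 and 8.91 CPM in NC and 86.0, 85.3 and 76.7 in siPdcd5 + TGF-b1 (net 3.22, SE 0.114, adjusted p = 1.71e-09), all 3 below the 111, 92.9 and 108 of NC + TGF-b1 although that difference did not pass (adjusted p = 0.14).

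Feedback genes of the TGF-β pathway had similar net and TGF-b1 values. Pmepa1, which binds SMADs, was at 216, 208 and 211 CPM in NC, 1410, 1190 and 1600 in NC + TGF-b1 and 1370, 1350 and 1340 in siPdcd5 + TGF-b1, with overlapping treated groups (net 2.68 after 2.72). Skil, a repressor of SMADs, had a net value of 1.27 after 1.40 and Smad7, the inhibitory SMAD, 0.81 after 0.64, while Smad6 had -1.23 after -1.28 and Dab2, an endocytic adaptor, -1.48 after -1.37. Of 29 tested ligands, receptors, SMADs and feedback genes, 8 were higher and 4 lower in the net comparison, and 12 were in the still moved class. The median difference of the 29 between NC + TGF-b1 and siPdcd5 + TGF-b1 was -0.06; 0 of the 29 were called there, where the background of 1.55% leaves little to read from that count.

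The class moved further was mostly one of loss, 29 of 34 genes, and in 29 of 34 the knockdown alone was also called, each time in the net direction, a count that describes the class since these comparisons share the NC libraries. Trf, transferrin, the carrier of iron, was at 47.1, 42.6 and 43.1 CPM in NC, 6.93, 6.58 and 11.6 in NC + TGF-b1, 12.2, 15.7 and 16.9 in siPdcd5, and 4.16, 3.39 and 4.44 in siPdcd5 + TGF-b1. The doubly perturbed libraries were the lowest of the 12, and the net log2 fold change of Trf was -3.46 (SE 0.209, adjusted p = 4.85e-08), after -2.40 with TGF-b1 alone and -1.56 with the knockdown alone. Lpl, lipoprotein lipase, went from 86.7, 90.1 and 101 CPM in NC through 22.9, 28.6 and 21.3 in NC + TGF-b1 to 12.1, 12.8 and 12.8 (net -2.88, SE 0.136). No 2 of the 4 groups of Lpl overlapped.

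Both named proteases of the class cleave proteoglycans such as aggrecan and versican. Adamts5 was at 315, 330 and 329 CPM in NC, 122, 106 and 142 in NC + TGF-b1, 98.4, 139 and 119 in siPdcd5, and 72.1, 77.8 and 75.2 in siPdcd5 + TGF-b1. Adamts1 was at 122, 120 and 112 CPM in NC, 47.3, 62.0 and 46.1 in NC + TGF-b1, 39.1, 33.2 and 29.6 in siPdcd5, and 29.3, 23.2 and 30.2 in siPdcd5 + TGF-b1. Their net log2 fold changes were -2.11 and -2.09 (SE 0.124 and 0.139), less than the sum of the single changes, which was -2.85 for Adamts5 and -2.98 for Adamts1. The interaction had an unadjusted p of 0.000874 for Adamts5 and 0.000484 for Adamts1, and neither passed its adjustment over all genes. In Adamts1 the knockdown alone and the double perturbation overlapped.

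Prl2c2, a proliferin of the prolactin family, was the largest riser of the class, from 5.40, 3.86 and 4.38 CPM in NC to 23.9, 16.9 and 21.0 (net 2.18, SE 0.197). It is nearly identical to Prl2c3, which had the same order of groups and a net value of 1.91, and multiply aligned reads were kept, so the 2 cannot be told apart. Other members, named after their values were seen, were Flrt3, an adhesion protein of the FLRT family, Aldh1a1, which makes retinoic acid, the receptors Notch1 and Egfr, the caveolar coat gene Cav1, the collagen chains Col8a1 and Col4a5, the proteoglycan Ogn, and, among the 5 that rose, the chromatin protein gene Hmga2. Flrt3 had the lowest net value, -4.70 (SE 0.318), from 17.7, 19.4 and 18.1 CPM in NC to 0.671, 0.463 and 0.941, a few counts above the 3-count floor. Net values were -1.79 for Aldh1a1, -1.63 for Notch1, -1.50 for Cav1, -1.73 for Col8a1 and -0.96 for Egfr, and 0.93 for Hmga2.

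Fbln5, Ccdc80 and Nexn were the 3 genes past the untreated level. Fbln5, fibulin-5, a protein needed for elastic fibres (chromosome 12, 101746565 to 101819055, minus strand), was at 36.7, 39.0 and 33.9 CPM in NC, 50.2, 53.6 and 51.9 in NC + TGF-b1, 10.9, 10.8 and 11.9 in siPdcd5, and 22.2, 19.0 and 19.4 in siPdcd5 + TGF-b1. TGF-b1 raised it in both kinds of cells, by 0.51 and 0.85 on the log2 scale, yet all doubly perturbed libraries lay below NC (net -0.85, SE 0.103, adjusted p = 3.62e-05). Ccdc80, a secreted matrix protein, was at 869, 883 and 857 CPM in NC and 717, 700 and 689 in siPdcd5 + TGF-b1 (net -0.31, adjusted p = 0.00935). Nexn, encoding the actin-binding nexilin, had a net value of -0.27 at an adjusted p of 0.0499, which lost its call in 12 of 19 alternative settings, the cause of which was not tested.

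**Figure D3:**
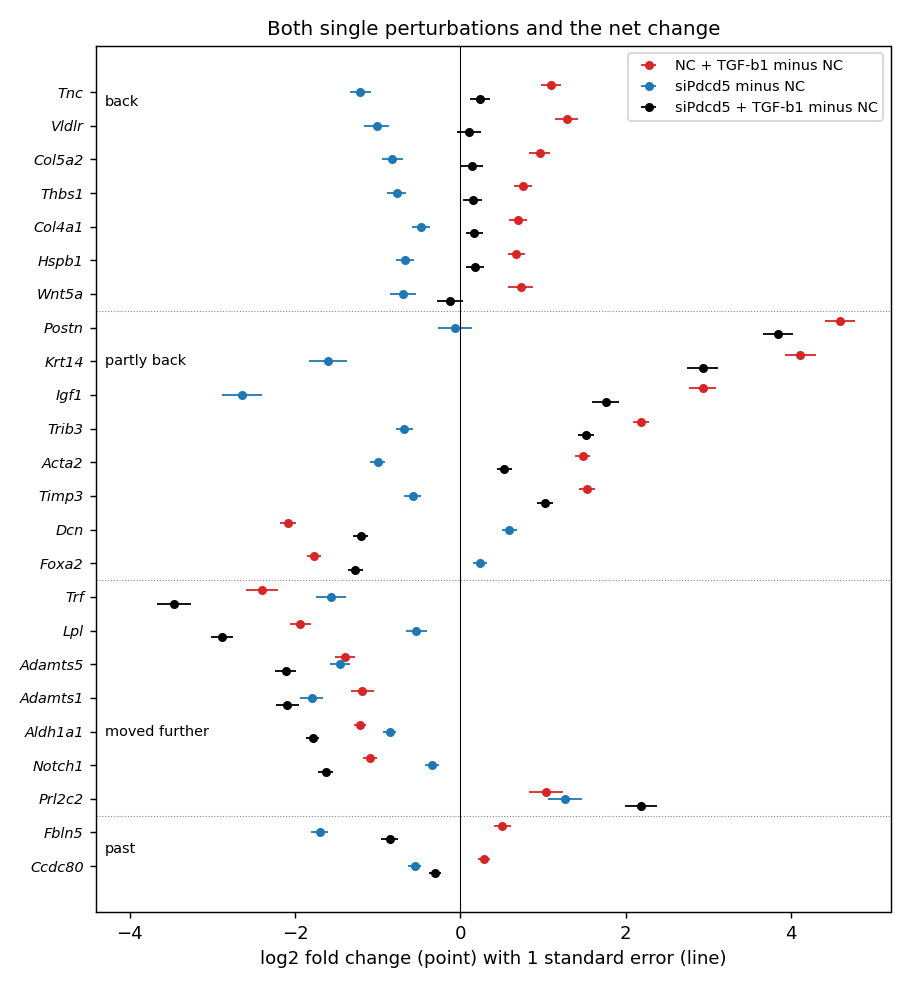
Log2 fold change with 1 standard error for TGF-b1 alone (red), the knockdown alone (blue) and both together against NC (black), for 24 genes of the classes back, partly back, moved further and past the untreated level (n = 3 libraries in each group). In genes back at the untreated level red and blue lie on opposite sides of 0 with black near 0; in genes moved further all 3 lie on the same side.

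Of the 882 genes called in the net comparison only, 387 were higher and 495 lower. The sign of the net change was shared by 830 after TGF-b1 alone and by 764 with the knockdown alone. These comparisons share the NC libraries, so the counts only describe the class. The knockdown alone was called in 101 of the 882, beside 3.44% of all genes. A missing TGF-b1 call does not show that TGF-b1 left a gene unchanged. Most net changes of the class were small, with a median absolute log2 fold change of 0.54. Besides Pdcd5 and Prl2c3, the largest at a mean log2 CPM of at least 3 were Slit2, Abca1 and Ltbp4. Slit2, a secreted guidance cue for axons and migrating cells, was at 14.8, 15.4 and 14.2 CPM in NC, 17.4, 13.8 and 14.8 in NC + TGF-b1, 4.43, 4.47 and 3.28 in siPdcd5, and 6.71, 5.01 and 5.92 in siPdcd5 + TGF-b1 (net -1.33, SE 0.163). All 6 knockdown libraries of Slit2 lay below the 6 others. Ltbp4, a latent TGF-β binding protein, was at 16.4, 16.5 and 16.3 CPM in NC and 6.11, 7.02 and 6.86 in siPdcd5 + TGF-b1 (net -1.30, SE 0.13). Abca1, which exports cholesterol, went from 41.5, 45.6 and 46.5 CPM in NC to 19.9, 16 and 18.3 (net -1.30, SE 0.201). Klf5, an epithelial transcription factor, and Jag1, a Notch ligand, had net values of -1.10 and -0.99, beside -0.83 and -0.78 with the knockdown alone.

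Ctgf and Thbs2 were less certain. Ctgf, the connective tissue growth factor of fibrosis, was at 36.3, 63.5 and 56.7 CPM in NC, 140, 410 and 204 in NC + TGF-b1, 23, 20.5 and 20.1 in siPdcd5, and 141, 68.0 and 181 in siPdcd5 + TGF-b1. The doubly perturbed libraries spread widely and their lowest stood just above the highest NC library, with a net log2 fold change of 1.32 (SE 0.364, adjusted p = 0.0226). The call was lost without NC replicate 1 (adjusted p = 0.0998), NC replicate 3 (0.0639), siPdcd5 + TGF-b1 replicate 1 (0.0686) or siPdcd5 + TGF-b1 replicate 3 (0.114). Thbs2, thrombospondin 2, was near the floor at 0.304, 0.223 and 0.384 CPM in NC, 1.75, 1.27 and 2.19 in NC + TGF-b1, and 1.01, 0.231 and 0.403 in siPdcd5 + TGF-b1, with NC and siPdcd5 + TGF-b1 overlapping (net 0.86, 95% interval -0.48 to 2.20, adjusted p = 0.378). It met none of the definitions.

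Gene lists were read as counts beside the background of 18% called in the net comparison. The backgrounds were 15.3% after TGF-b1 in control cells and 1.55% for the knockdown under TGF-b1. The lists were chosen with earlier results of these data known, so their counts describe and do not test. Of 22 tested collagens, 10 were higher and 6 lower in the net comparison, 16 of 22 in all, where TGF-b1 alone had given 13 and 6. The knockdown under TGF-b1 lowered 7 of the 22 and raised none, beside 1.55% of all genes called in that comparison. Col5a3 (2.07) and Col5a1 (1.44) stayed high, Col5a2 was back, and the lower members were the beaded-filament chains Col6a1 and Col6a2 (-0.66 and -0.55), Col12a1 (-0.44), the basement membrane chains Col4a5 and Col4a6 (-0.997 and -1.72) and Col8a1. Collagen processing genes were called higher in 8 of 18 and lower in none, led by Lox (1.46), the lysyl oxidase, and Plod2 (1.33), a lysyl hydroxylase. Of 15 matricellular genes, 6 were higher and 3 lower, against 11 and 2 after TGF-b1 alone. The other higher members besides Postn and Ctgf were Wisp2 (1.54), Wisp1 (0.81), Cyr61 (0.64) and Matn2 (0.49), and the lower ones were Spp1 (-1.10), Ecm1 (-0.68) and Fbln5. Among 11 elastic fibre genes, 6 were higher and 3 lower, the last being Fbln5, Efemp1 (-1.15) and Ltbp4.

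Matrix-degrading enzymes and other surface genes were mixed. In the list of matrix proteases and inhibitors 8 of 22 were higher and 6 lower. Among the higher were the aggrecanase Adamts4 (3.14) and the inhibitor Timp1 (1.65), and lower were Adamts1, Adamts5, Mmp3 (-1.93), Adamts9 (-1.86), Plat (-1.72) and Mmp13 (-1.14). Of 15 proteoglycan and hyaluronan genes 5 were higher, with Vcan (1.33) and Bgn (2.77) among them, and 4 lower, with Cemip (-1.45) and Ogn (-1.27). Bgn had a mean log2 CPM under 1, so its value rests on few counts. Of 12 laminins, nidogens and basement membrane proteoglycans, 4 were higher, led by Gpc1 (1.68), and 2 lower, Gpc6 (-1.27) and Lama5 (-0.58). Of 10 integrins, 4 were higher, among them Itgb3 (1.49) and Itgb5 (1.40), and 3 lower, Itga1 (-1.94), Itgb7 (-1.44) and Itga3 (-0.57). Itgb7 was likewise at a mean log2 CPM under 1.

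Contractile and tubulin genes were called in the higher direction only. Of 20 contractile and cytoskeletal genes 8 were higher and none lower, among them Tagln2 (1.12) and Tpm1 (0.94). Of 24 tubulins and CCT subunits 10 were higher and none lower, with Tubb3 (1.33) and Tuba1c (1.27) the largest. TGF-b1 alone had given 5 calls, all higher, and the knockdown alone none. The backgrounds of 15.3% and 3.44% of all genes leave little to read from these last counts. The CCT members called were Tcp1 (0.32) and Cct3 (0.26). Tubulin genes are close paralogs, and since multiply aligned reads were kept, the members may share reads. In the list of mesenchymal and EMT genes 8 of 17 were higher, with Snai1 (1.54) and Ncam1 (1.47) the largest, and 5 lower, with Prrx1 (-1.39), Twist1 (-0.81), S100a4 (-0.79), Vim (-0.70) and Snai2 (-0.41). Of 10 S100 genes 4 were lower and none higher. In the epithelial junction and simple keratin list 2 of 13 were higher, the keratins Krt8 (1.24) and Krt18 (1.22), and 2 lower, among them the tight junction scaffold Tjp1 (-0.47). Of 9 basal keratin, laminin-332 and hemidesmosome genes 3 were higher, among them Lamb3 and Krt14, and 1 lower (Itga3).

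In the mitosis and DNA replication lists the share called was below the background. Of 33 mitosis genes 14 were lower after TGF-b1 in control cells, where 15.3% of all genes were called. In the net comparison 4 were lower, a share of 12.1%. The 4 were Aurkb (-0.93), Nusap1 (-0.66), Cenpf (-0.54) and Cdc20 (-0.48), while 9 of the 14 met no definition and Birc5 was back. The median of the list was -0.43 after TGF-b1 and -0.26 net. Of 34 DNA replication genes 2 were higher, among them Tyms (0.38), and 2 lower, Rrm1 (-0.46) and Cdt1 (-0.34). Of 21 cyclins and CDK inhibitors 2 were higher and 5 lower, the largest fall being that of Ccnd1, cyclin D1 (-1.49), and the largest rise that of Cdkn2b, the inhibitor p15 (0.91). Among genes of apoptosis, 1 of 23 BCL2 family members and caspases was higher, Bok (0.88), and 4 lower, among them Bbc3 (-0.59) and Mcl1 (-0.58). Of 27 p53 targets 3 were higher, led by Gdf15 (2.74), and 4 lower, led by Sesn1 (-0.93). The shares called in these lists, 21.7% and 25.9%, were not far above the background of 18%.

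Among other signalling lists, the Wnt, Notch and guidance lists held more lower than higher calls. Of 26 Wnt pathway genes 6 were lower, with the receptor Fzd5 at -2.13, and 1 higher, Wnt9a (0.86), 26.9% in all beside the background of 18%. Of 9 Notch pathway genes 3 were lower and 1 higher. Notch1 went from 98.5, 90.0 and 88.1 CPM in NC to 30.1, 28.5 and 30.9 in siPdcd5 + TGF-b1, below the 45.5, 41.0 and 43.1 of NC + TGF-b1. Of 19 guidance genes 8 were lower, among them Sema3e (-1.34) and Slit2, and 2 higher, Ntn1 (1.15) and Plxnd1 (0.86). Of 20 YAP and TAZ targets 5 were higher, with Gadd45a (2.02) and Ctgf the largest, and 5 lower, with Crim1 (-1.05) and Amotl2 (-0.58). Of 27 AP-1 and early response genes 7 were higher, led among abundant members by Junb (1.09) and Bhlhe40 (1.06), and 6 lower, with Dusp1 (-1.26) and Klf5. Of 21 growth factor genes 8 were higher, led by Igf1, and 4 lower, among them Igfbp6 (-1.64) and Egfr.

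Immune and metabolic lists differed among themselves. Of 19 chemokines and cytokines 9 were higher, with Il1rl1 (3.53), the interleukin 33 receptor, and Ccl2 the largest, and 2 were lower. Of 35 interferon and antigen presentation genes 4 were higher, among them Ifi44 (1.17), and 3 lower, among them Ifit2 (-1.23), 20% in all and near the background. Of 31 cholesterol and fatty acid synthesis genes 9 were higher and none lower, the largest being Acsl3 and Nsdhl (both 0.67). Of 28 glycolysis and hypoxia genes 8 were higher, led by Hk2 (1.77) and the lactate exporter Slc16a3 (0.99), and 3 lower, including Car9 (-1.19). Of 31 NRF2 and glutathione genes 5 were higher, led by Slc7a11, and 5 lower, led by Gsta4 (-2.06) and Osgin1 (-1.48). In the marker lists, 4 of 5 tested club cell markers were lower, namely Gsta4, Aldh1a1, Foxa2 and Por (-0.28), and of 12 tested markers of other lung cell types 4 were higher, among them Pdgfrb (0.84), and 3 lower, among them Wt1 (-0.93) and Dcn.

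**Figure D4:**
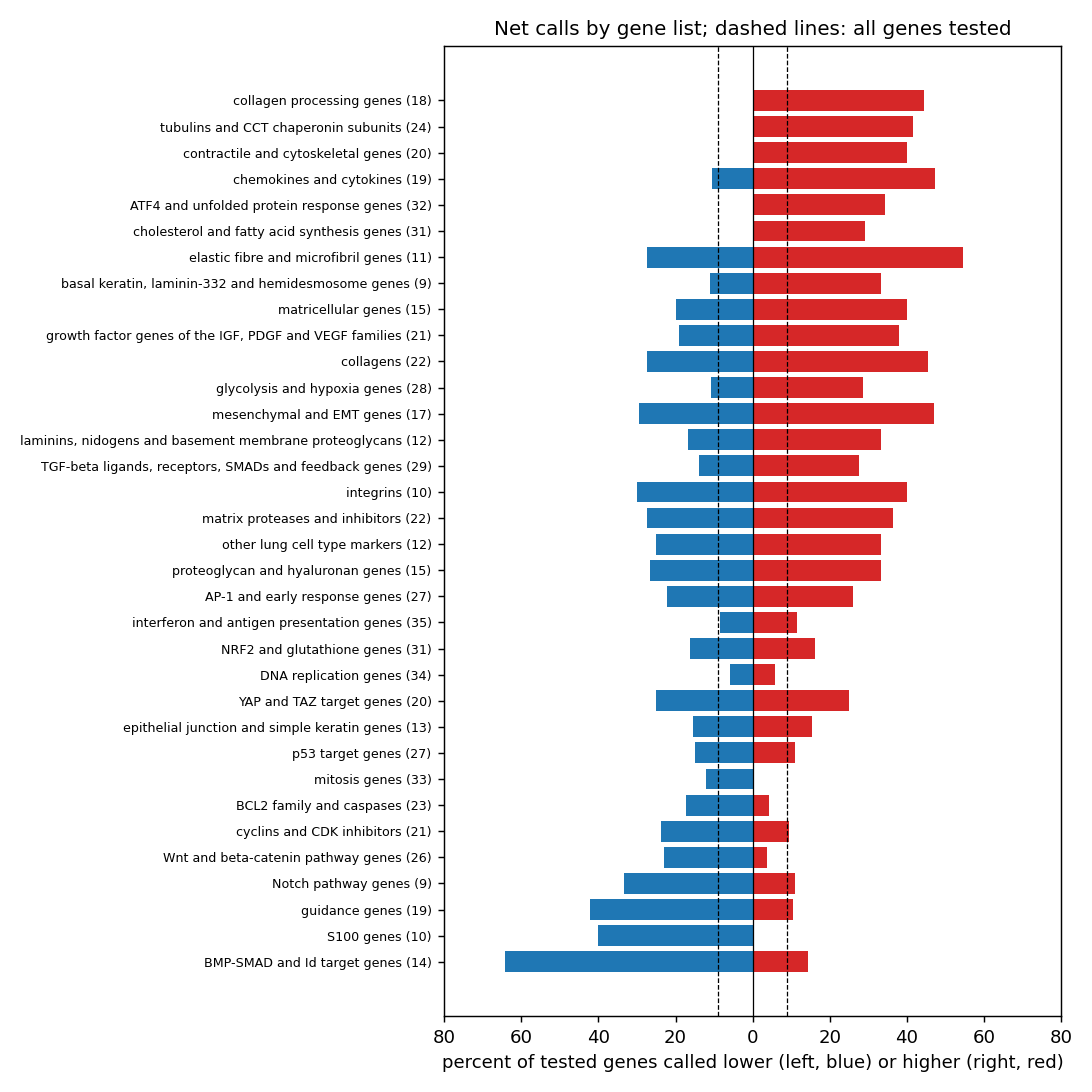
Percent of the tested genes of each list called higher (red, to the right) or lower (blue, to the left) in siPdcd5 + TGF-b1 against NC, with the number of tested genes in brackets, for lists with at least 9 tested genes; dashed lines mark the 8.92% higher and 9.05% lower among all genes. BMP-SMAD and Id genes reach farthest to the left, and collagen processing, tubulin, contractile, ATF4 and cholesterol synthesis genes have bars to the right only.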

How the data were processed

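RNA of C22 cells was measured in 12 libraries, 4 groups of 3, by 3′ end sequencing. Per the labels, the authors aligned reads with Bowtie2 to mm10 and deposited raw read counts per gene symbol, keeping uniquely and multiply aligned reads; the annotation and the use of strand are not given in the sources used here. The authors named edgeR and quantile normalization for their own comparisons, and no normalized values were used here.

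Counts were fitted with edgeR 4.0.16 in R 4.3.3 (TMM, filterByExpr, quasi-likelihood test, all 4 groups in 1 model), with Benjamini-Hochberg adjustment over 12425 genes and a threshold of 0.05. Standard errors are Wald errors of the fit, and 95% intervals use them. The net change equals the TGF-b1 response plus the knockdown effect under TGF-b1. Precision is limited by 3 libraries a group, and by counting error at the 3-count floor. Scripts were tested on simulated data.

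Named genes were Pdcd5, Postn, Ctgf, Thbs2 and Tnc, the 5 largest changes of each class at mean log2 CPM 3 or more, and 2 rises and 2 falls of each list at mean log2 CPM 1 or more; others were chosen after their values were seen. Some genes under this rule are not reported here. The members and the 35 lists were chosen with earlier results of these data known. Alternatives were DESeq2 1.42.0, limma 3.58.1 after quantile normalization, upper-quartile factors, other filters, only the compared libraries, a replicate block and leaving out each library. Same-numbered NC and siPdcd5 + TGF-b1 libraries did not deviate together (mean correlation -0.017, against 0.008 for other pairs). Promoters were read from RefSeq and positions from GENCODE vM21.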

Additional observations from a re-analysis of the deposited data

How the results depend on the processing

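The number of net calls ranged from 1528 to 2928 when 1 library was left out, and lay within 1.5 times the reported 2233 under the other settings except 2: 4268 genes were called when each contrast used only its own 6 libraries, and 704 with an absolute log2 fold change of at least 1. The higher and lower split was 1008 to 1217 with upper-quartile factors. With only the 6 libraries of each contrast, 5 genes were back at the untreated level, 11 partly back, 6 moved further and 2933 called in the net only. With DESeq2 these counts were 102 back, 59 partly back and 73 moved further. With the replicate block they were 21 back, 18 partly back and 21 moved further, and 1992 genes were called in the net comparison; the numbers do not pair the libraries, so a lost call there is not read as a weaker effect. When 1 library was left out, the counts ranged from 12 to 66 for back, 14 to 49 for partly back, 945 to 1645 for still moved, 14 to 54 for moved further, 1 to 4 for past the untreated level and 464 to 1178 for the net only. The high end came without NC + TGF-b1 replicate 2, except for the net only (without NC + TGF-b1 replicate 3), and the low ends of back, partly back and moved further without siPdcd5 + TGF-b1 replicate 2 or 3. The causes were not tested. Over 125 named genes and 19 settings, 2274 values kept direction and call, 98 lost the call and 0 reversed. The class of a gene could be less stable than its net call. Trf stayed moved further in 13 of 19 settings, Postn partly back in 14 and Col1a2 still moved in 15. Lpl, Krt14 and Id2 kept their class in all 19. With 3 libraries a group, genes near the count floor such as Thbs2 could not be placed.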
